A study of Homo sapiens with 8 samples.

Results

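The tripartite motif (TRIM) genes were examined on the Ago2-RIP-Chip arrays of ST486, a cell line established from Burkitt lymphoma. Members were all probes, control spots left out, whose RefSeq accession belongs to a gene symbol made of TRIM and a number. This rule found 99 probes of 58 genes among 41000 probes, of which 23958 (16557 genes) had a symbol. The cells had been transduced with the retroviral MXW-PGK-IRES-GFP vector, either empty (EV-ST486) or with the miR-155 precursor and its flanks as insert (miR-155-ST486), were otherwise grown alike, and were sorted for GFP in both cases. RNA was taken from the lysate as it was (total, T) and from the material that an antibody against Ago2 pulled out of it (immunoprecipitate, IP). These 4 RNA samples were each labelled once with Cy3 and once with Cy5, and the IP was hybridized against the total of its own cells with the dyes either way round, which makes 4 arrays and 8 channels. Each condition has n = 1 and the labellings are technical repeats, so no test was made, no p-value is given, and the values of the 2 dye orientations are the only measure of error. The IP/T ratio addresses which transcripts were held by Ago2 beyond their level in the lysate. The ratio of the IP/T ratios of both vectors (miR-155/EV) addresses which were held more, or less, once miR-155 was supplied.

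Most TRIM proteins carry a RING finger, B-box zinc fingers and a coiled coil, followed by a C-terminal part that divides the family into classes. Through the RING finger most of them act as E3 ubiquitin ligases, which attach ubiquitin to chosen proteins. In B cells and other cells of the immune system several members act in antiviral defence and in NF-κB signalling, while others work on chromatin, on membranes or on microtubules. Ago2 is the protein that holds a mature miRNA on its target transcripts, mostly through sites in the 3′UTR that pair with the seed of the miRNA. MiR-155 is cut from the transcript of MIR155HG and is known for its role in germinal center B cells and in lymphoma. Its mature strands are shown because the seed of the 5p strand gives the letters that a transcript needs for binding. Capitals mark the seed, bases 2 to 8 from the 5′ end.
hsa-miR-155-5p: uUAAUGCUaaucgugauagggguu
hsa-miR-155-3p: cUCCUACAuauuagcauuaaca
Both sequences are those of RefSeq on GRCh38.p14, plus strand, at chr21:25573983-25574006 and chr21:25574022-25574043. The 8-mer site that pairs with the 5p strand from its 5′ end reads AGCATTAA, and the 6-mer site within it reads GCATTA. TRIM transcripts were not searched for these sites here.

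The labelled cell type and vector were checked first. Of 8 B-cell genes, 7 were detected in all 4 channels of the total fractions and PAX5 in 0. Of the T-cell genes, CD3D and CD3E were detected in 0 of these channels and CD4 and CD8A in all 4. Of the monocyte genes, CSF1R and LYZ were detected in 0 and CD14 in 3. The MIR155HG probe was detected in neither EV-ST486 labelling of the total fraction, with signals of 11.4 (Cy3) and 19.2 (Cy5), and in both of miR-155-ST486, with signals of 121 and 107. Its total signal was 1.40-fold higher in miR-155-ST486 after another processing. This was normexp background correction with an offset and with high local backgrounds replaced, then loess and Aquantile normalization. As the probe was not detected in EV-ST486, the size is uncertain. The number of probes detected per channel ranged from 14094 to 22161, no probe was saturated, and each slide held arrays of only 1 vector, so that slide and vector cannot be told apart.

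TRIM probes differed widely in detection. Of the 99 probes, 33 (33.3%) were detected in none of the 8 channels, beside 42.4% of all probes, and 32 (32.3%) were detected in all 8, beside 31.0% of all probes. At least 4 channels detected 55 of them (55.6%), beside 47.5%. Per channel, between 35 (IP fraction of EV-ST486, Cy5) and 62 (total fraction of EV-ST486, Cy3) of the TRIM probes were detected, and in each of the 4 RNA samples the Cy3 labelling gave more detected TRIM probes than the Cy5 labelling. For 17 genes no probe was detected in any channel. They include TRIM2 and TRIM3 of the NHL repeat class, TRIM46, TRIM54 and TRIM55 of the microtubule-binding COS domain classes, and TRIM6, TRIM15, TRIM17, TRIM58 and TRIM60 of the PRY-SPRY class. For a further 11 genes a probe was detected somewhere but did not meet the filters. Among these are TRIM5 (detected in at most 1 channel) and TRIM21 and TRIM38 (in at most 3), which act in antiviral sensing, and TRIM23 (in at most 1), the member with an ARF domain.

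The remaining analysis used 41 TRIM probes of 30 genes (41.4% of the TRIM probes, beside 37.9% of all probes), which were detected in at least 4 channels and whose labellings lay within 2-fold of each other in each RNA sample. Of these, 31 were detected in all 8 channels. The counts, medians and ratios that follow refer to these probes and not to the whole family, except where another processing is named. The filters were then applied anew and could keep other probes. Signals are quantile-normalized and on a linear scale, and a pair of signals is given with the Cy3 labelling first. Beside a ratio, the values in brackets are for the arrays with total RNA in Cy3 and then for those with IP RNA in Cy3. About the same mass of RNA was labelled from each fraction, so an IP/T ratio is relative to the other transcripts of the same sample.

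The median IP/T ratio was 0.770 for EV-ST486 and 0.857 for miR-155-ST486, beside 0.900 and 0.882 over all 15529 kept probes. IP/T was below 1 for 29 of the 41 probes (70.7%) in each vector, beside 58.2% of all kept probes with EV and 59.4% with miR-155. IP/T was below 1 on all 4 arrays for 20 TRIM probes (48.8%) of 17 genes, beside 39.3% of all kept probes, and above 1 on all 4 arrays for 7 (17.1%), beside 26.3%. In EV-ST486 2 TRIM probes (4.88%) had IP/T at or above 2, beside 12.1% of all kept probes, and 6 (14.6%) at or below 0.5, beside 10.0%. In miR-155-ST486 4 (9.76%) were at or above 2, beside 12.2%, and 4 (9.76%) at or below 0.5, beside 9.83%. In each of the 2 dye orientations, 4 TRIM probes were at or below 0.5 with EV (TRIM25, TRIM26, TRIM27 and TRIM35), beside 5.07% of all kept probes, and 2 with miR-155 (TRIM27 and TRIM35), beside 5.90%. The dye orientations of a single TRIM probe differed by a median of 1.37-fold in EV-ST486 and 1.28-fold in miR-155-ST486. The filter on labellings limits these differences, so they understate the labelling error over all detected probes. With only the arrays that held IP RNA in Cy3, the medians of the TRIM probes were 0.857 and 0.827, beside 0.909 and 0.885 over all kept probes, and with only the others 0.761 and 0.800, beside 0.913 and 0.896. In each normexp setting given here the filters, applied anew, kept 55 TRIM probes. After normexp background correction with loess and Aquantile the median log2 IP/T with EV was 0.0045 for these and 0.0042 over the 18895 probes kept. After normexp with quantile normalization none of the 55 was at or above 2 or at or below 0.5 in either vector.

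**Figure D1:**
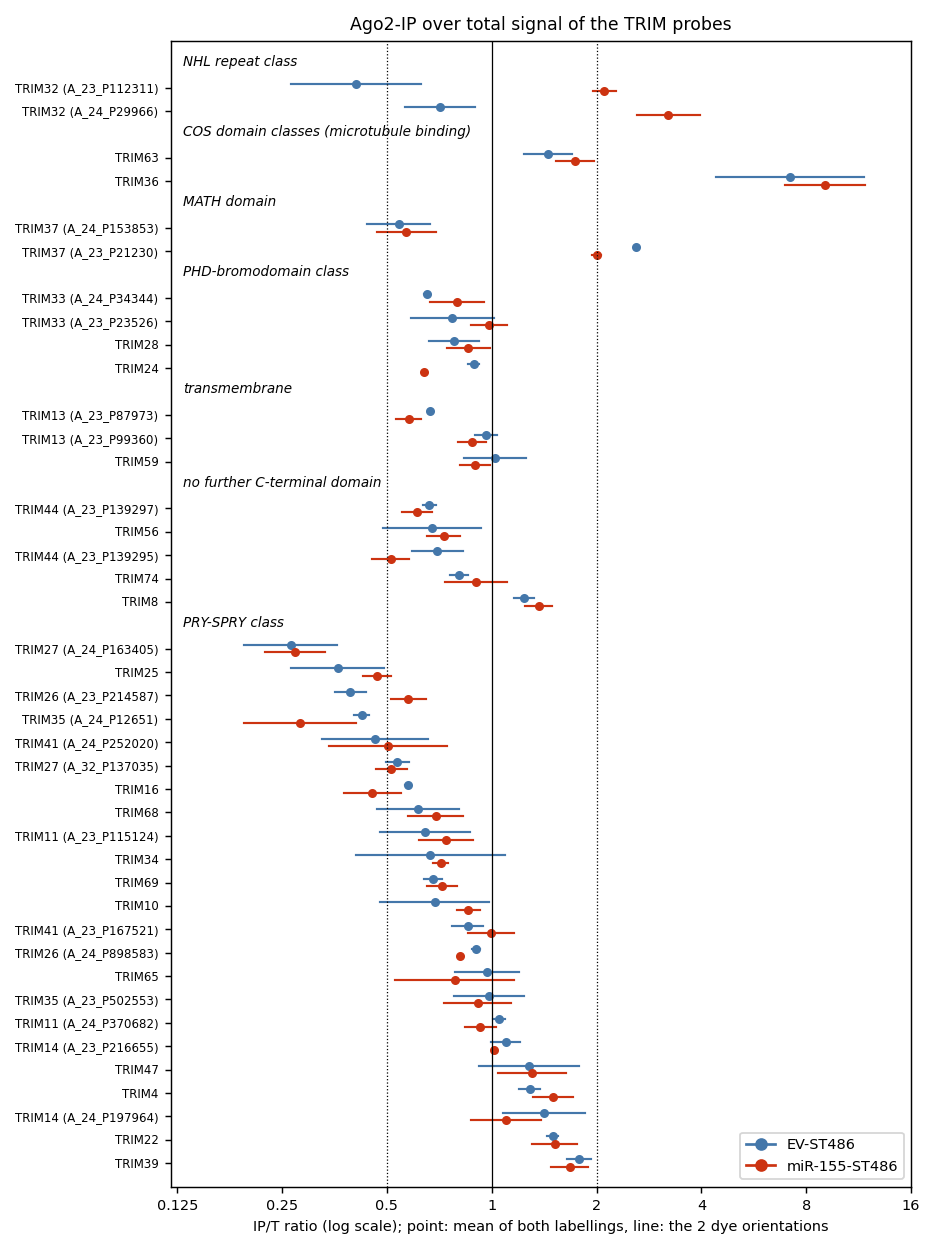
IP/T ratio (log scale) of the 41 kept TRIM probes, grouped by C-terminal class, in EV-ST486 (blue) and miR-155-ST486 (red). Points are means of both labellings, lines join the 2 dye orientations, and dotted lines mark ratios of 0.5 and 2. Only the TRIM32 probes lie on opposite sides of 1 in both vectors on all 4 arrays, and TRIM36 lies farthest to the right.

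Among genes named TRIM with a number, only TRIM32 had a kept probe whose IP/T differed at least 2-fold between the vectors. TRIM32 is an E3 ligase of the NHL repeat class that is known from muscle, where it acts on proteins of the cytoskeleton and where its mutation causes a limb-girdle muscular dystrophy. Both of its probes carry the accession NM_012210 and both were kept. The probe A_23_P112311 had total signals of 164 (Cy3) and 124 (Cy5) and IP signals of 77.7 and 43.5 in EV-ST486, and total signals of 131 and 129 and IP signals of 292 and 254 in miR-155-ST486. The probe A_24_P29966 had total signals of 676 and 1165 and IP signals of 657 and 604 in EV-ST486, and total signals of 763 and 910 and IP signals of 2369 and 3024 in miR-155-ST486. For both probes the IP labellings of miR-155-ST486 were thus the highest channels, above every labelling of the other 3 RNA samples, while the total signals of both vectors overlapped.

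**Figure D2:**
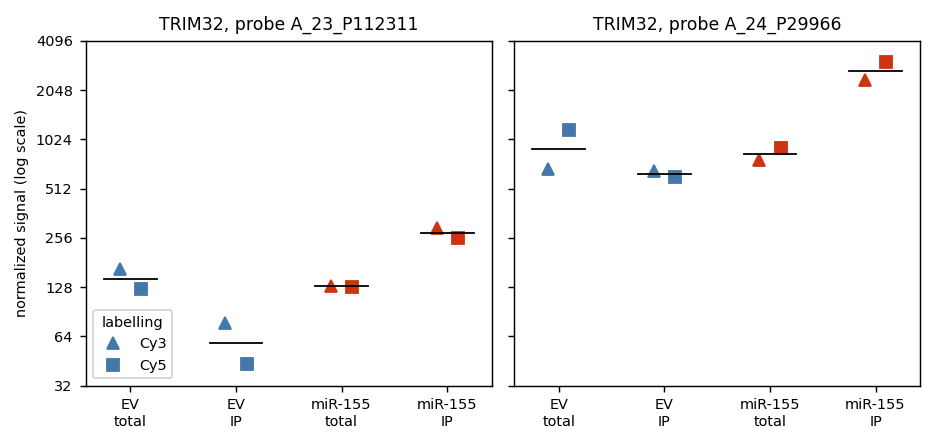
Normalized signal (log scale) of both TRIM32 probes in each RNA sample, with the Cy3 labelling as triangles, the Cy5 labelling as squares and their log-scale mean as a bar. The IP fraction of miR-155-ST486 stands above all other samples on both probes, with 254 to 292 on the left and 2369 to 3024 on the right.

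The IP/T ratio of A_23_P112311 was 0.408 for EV-ST486 (0.265 and 0.627 in the dye orientations) and 2.10 for miR-155-ST486 (1.95 and 2.27), which gives a miR-155/EV ratio of 5.16 (7.36 and 3.62). For A_24_P29966 it was 0.710 (0.894 and 0.564) and 3.21 (3.96 and 2.60), which makes miR-155/EV 4.52 (4.43 and 4.62). The difference lay in the IP fraction, whose signal was 4.69-fold and 4.25-fold higher in miR-155-ST486, while the total signal was 0.908 and 0.939 times that of EV-ST486. Of the 41 TRIM probes only these 2 (4.88%) reached 2 both in IP/T of miR-155-ST486 and in miR-155/EV, beside 0.438% of all kept probes. They reached a miR-155/EV of 2 in each orientation as well, as 0.670% of all kept probes did. Likewise only these were below 1 on both EV-ST486 arrays and above 1 on both miR-155-ST486 arrays, beside 1.58% of all kept probes, and no TRIM probe showed the opposite, beside 1.65%. None of the 41 met the same thresholds with the vectors exchanged, which 0.174% of all kept probes did. TRIM32 had been followed up in the study because of these same arrays, so its place here is no independent evidence. Apart from these arrays, the study reported that the miR-155 precursor lowered a luciferase reporter with the predicted TRIM32 sites. In its Hodgkin lymphoma lines TRIM32 was not expressed or only borderline enriched. The A_23_P112311 probe was detected in only 1 labelling of the EV-ST486 IP fraction, so its low ratio there rests on a dim signal. The sizes depended on the processing. After normexp with an offset of 50 and quantile normalization the ratios were 1.25 and 1.73, and with high local backgrounds also replaced 2.01 and 3.44. After normexp, loess and Aquantile they were 1.19 and 1.94.

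None of the other kept TRIM probes came near this difference. Leaving TRIM32 aside, the miR-155/EV ratio of the remaining 39 probes ran from 0.666 to 1.47, with a median of 1.03, whereas 1.15% of all kept probes reached 2 and 0.477% were at or below 0.5. The highest was a probe of TRIM26 (A_23_P214587), at 1.47 (1.45 and 1.49 in the orientations), followed by TRIM25 at 1.30 (1.94 and 0.866) and the TRIM33 probe A_23_P23526 at 1.27 (1.49 and 1.09). The lowest were the TRIM35 probe A_24_P12651 at 0.666 (0.437 and 1.02), TRIM24 at 0.721 (0.692 and 0.752), the TRIM44 probe A_23_P139295 at 0.736 (0.772 and 0.702), the TRIM37 probe A_23_P21230 at 0.770 (0.797 and 0.744) and the TRIM14 probe A_24_P197964 at 0.781 (0.749 and 0.814). For TRIM25 and TRIM35 the orientations lay on opposite sides of 1. TRIM24, TRIM44, TRIM37 and TRIM14 lay below 1 in both.

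**Figure D3:**
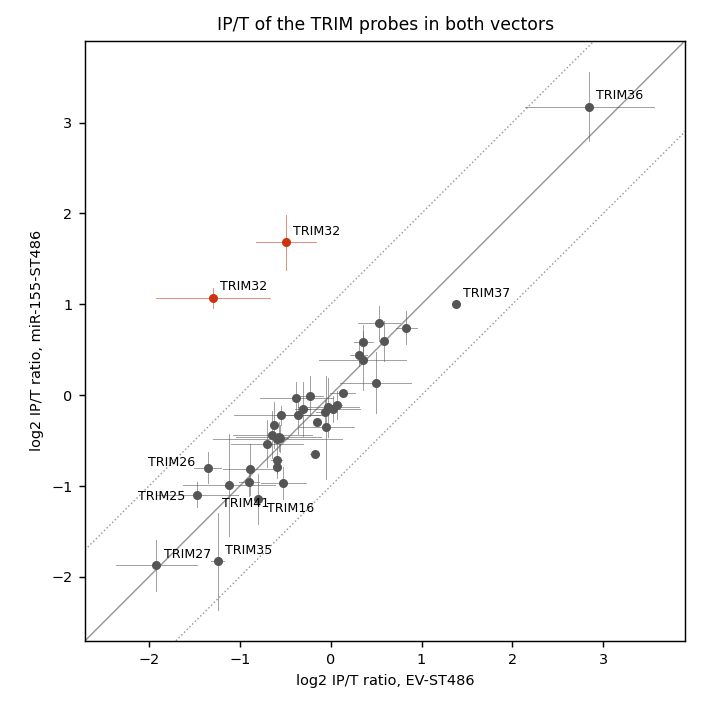
Log2 IP/T ratio of the 41 kept TRIM probes in EV-ST486 (horizontal) and miR-155-ST486 (vertical), with lines from one dye orientation to the other. The solid diagonal marks equal ratios and the dotted ones a 2-fold difference, and only the TRIM32 probes (red) lie outside the dotted lines, at log2 values of -1.29 and 1.07 and of -0.49 and 1.68.

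TRIM36 had the highest IP/T of the kept TRIM probes in both vectors. TRIM36 is a ligase of the COS domain classes that binds microtubules and is known from the acrosome of sperm. Its probe A_23_P110569 had total signals of 100 (Cy3) and 161 (Cy5) and IP signals of 706 and 1179 in EV-ST486, and total signals of 111 and 162 and IP signals of 1126 and 1312 in miR-155-ST486. Each IP labelling was higher than each total labelling. IP/T was 7.18 (11.7 and 4.39) for EV-ST486 and 9.04 (11.8 and 6.94) for miR-155-ST486, and the miR-155/EV ratio of 1.26 (1.00 and 1.58) was within the distance of the orientations. These values depended on the processing: IP/T was 1.35 and 1.52 after normexp with quantile normalization. With high local backgrounds replaced as well, TRIM36 stayed at or above 2 in miR-155-ST486. After normexp with loess and Aquantile IP/T was 1.08 and 2.02, and the TRIM11 probe A_24_P370682 stood higher with EV, at 1.27. The TRIM36 probe was filtered out without quantile normalization, and the other TRIM36 probe was detected in 0 channels. The other kept member of the COS domain classes was TRIM63, also called MuRF1, which marks proteins of the sarcomere for breakdown in muscle. Its IP/T was 1.45 (1.69 and 1.24) for EV-ST486 and 1.73 (1.97 and 1.53) for miR-155-ST486, above 1 on all 4 arrays.

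TRIM37, the MATH domain member and a ligase known from mulibrey nanism and from control of centrosomes, gave opposite ratios on its probes. The probe A_23_P21230 (NM_015294) had total signals of 435 and 392 and IP signals of 1022 and 1127 in EV-ST486, and total signals of 463 and 577 and IP signals of 1120 and 955 in miR-155-ST486. The probe A_24_P153853 (NM_001005207) had total signals of 375 and 481 and IP signals of 320 and 165 in EV-ST486, and total signals of 366 and 452 and IP signals of 212 and 253 in miR-155-ST486. IP was above total in every labelling of the first probe and below it in every labelling of the second. The IP/T ratios were 2.60 and 0.540 in EV-ST486, 4.81-fold apart, and 2.00 and 0.569 in miR-155-ST486, 3.52-fold apart, and the orientations of the probes did not overlap in either vector. The accessions name different transcripts of TRIM37, and which part of them each probe matches was not examined here.

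The PRY-SPRY class, the largest, was kept with 23 probes of 17 genes. Its median IP/T ratio was 0.686 for EV-ST486 and 0.782 for miR-155-ST486, beside 0.900 and 0.882 over all kept probes. Below 1 were 16 and 17 of the 23 probes, where 58.2% and 59.4% of all kept probes were. None reached 2 in either vector, beside 12.1% and 12.2% of all kept probes. At or below 0.5 were 5 for EV-ST486 and 4 for miR-155-ST486, beside 10.0% and 9.83%. TRIM27, a ligase also known as RFP that takes part in transcriptional repression and in the sorting of endosomes, was the lowest. Its probe A_24_P163405 had total signals of 1988 and 1416 and IP signals of 510 and 387 in EV-ST486, and total signals of 1761 and 1311 and IP signals of 436 and 394 in miR-155-ST486. IP/T was 0.265 (0.195 and 0.360) and 0.273 (0.224 and 0.333). The other TRIM27 probe, A_32_P137035, lay at 0.536 and 0.515, just above the threshold of 0.5, and was below 1 on all 4 arrays as well.

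TRIM25 activates the RNA sensor RIG-I by ubiquitination, and its only kept probe was also low in the IP fraction. The probe A_24_P936767 had total signals of 346 and 241 and IP signals of 118 and 91.8 in EV-ST486, and total signals of 326 and 323 and IP signals of 138 and 168 in miR-155-ST486. The ratio was 0.361 (0.265 and 0.492) for EV-ST486 and 0.468 (0.514 and 0.426) for miR-155-ST486, with overlapping orientations between the vectors. This probe was detected in only 1 labelling of the EV-ST486 IP fraction. The other TRIM25 probe, A_23_P15326, was left out because its labellings differed by over 2-fold. It was less low, at 0.710 (0.468 and 1.08) for EV-ST486 and 0.830 (0.731 and 0.943) for miR-155-ST486. TRIM16, which takes part in the autophagy of damaged lysosomes, had an IP/T of 0.573 (0.564 and 0.582) for EV-ST486 and 0.453 (0.547 and 0.376) for miR-155-ST486. The total signals of its probe were 316 and 254 in EV-ST486 and 272 and 291 in miR-155-ST486, and the IP signals 148 and 178, and 109 and 149. The TRIM16 probe was detected in only 1 labelling of each IP fraction.

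For TRIM26, TRIM35 and TRIM41 only 1 of the 2 kept probes was low. TRIM26 is a ligase of the antiviral response encoded in the major histocompatibility complex. Its probe A_23_P214587 had total signals of 844 and 765 and IP signals of 333 and 299 in EV-ST486, and total signals of 897 and 697 and IP signals of 450 and 459 in miR-155-ST486. IP/T was 0.392 (0.354 and 0.435) and 0.575 (0.512 and 0.646), whereas its probe A_24_P898583 gave 0.901 and 0.813. The orientations of the low TRIM26 probe did not overlap between the vectors, with the higher ratio in miR-155-ST486.

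TRIM35, a ligase that regulates interferon signalling, had an IP/T of 0.423 (0.444 and 0.402) for EV-ST486 and 0.282 (0.194 and 0.409) for miR-155-ST486 on A_24_P12651. The signals of this probe were lower in miR-155-ST486 in both fractions, from 458 and 593 to 355 and 220 in the total and from 239 and 204 to 90.1 and 69.0 in the IP fraction. The probe A_23_P502553 went the other way, with total signals of 353 and 484 in EV-ST486 and 515 and 603 in miR-155-ST486, and with IP/T ratios of 0.983 and 0.911. The low probe was detected in only 1 labelling of the IP fraction of miR-155-ST486. TRIM41, which ubiquitinates protein kinase C, had IP/T ratios of 0.461 and 0.503 on A_24_P252020 and of 0.853 and 0.993 on A_23_P167521. The total signals of A_24_P252020 were 258 and 197 in EV-ST486 and 259 and 158 in miR-155-ST486, and the IP signals 129 and 83.7, and 117 and 88.6. This probe was detected in only 1 labelling of each IP fraction.

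At the other end of the PRY-SPRY class were TRIM39, TRIM22 and TRIM4, with IP/T above 1 on all 4 arrays. TRIM39, which acts on the cell cycle and apoptosis, had the highest ratio of the class at 1.78 (1.64 and 1.93) for EV-ST486 and 1.67 (1.90 and 1.48) for miR-155-ST486. TRIM22, an interferon-induced restriction factor for viruses, had log2 IP/T values of 0.58 and 0.60 in the vectors, and TRIM4, which acts in RIG-I signalling, of 0.36 and 0.59. TRIM22 was detected in 1 of the 2 labellings of both EV-ST486 fractions. Of the 10 members listed for their role in innate immunity, 6 were kept with 8 probes, and their median ratio of 0.779 for EV-ST486 and 0.770 for miR-155-ST486 stood beside 0.770 and 0.857 for the family.

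TRIM24, TRIM28 and TRIM33, which act on chromatin, were the kept members of the PHD-bromodomain class, of which TRIM28, also called KAP1, is the corepressor of KRAB zinc finger proteins. All 4 of their probes had an IP/T ratio below 1 in both vectors, from 0.651 to 0.886 for EV-ST486 and from 0.639 to 0.980 for miR-155-ST486, as had 58.2% and 59.4% of all kept probes. The TRIM33 probe A_23_P23526 was above 1 on the arrays with IP RNA in Cy3 in both vectors. TRIM24 had total signals of 5667 and 5900 and IP signals of 5053 and 5197 in EV-ST486, and total signals of 7438 and 6922 and IP signals of 4456 and 4719 in miR-155-ST486. Its total signal was higher and its IP signal lower in miR-155-ST486 in every labelling, which gave IP/T ratios of 0.886 (0.917 and 0.856) and 0.639 (0.634 and 0.644) with no overlap of the orientations.

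The members anchored in membranes, TRIM13 and TRIM59, had IP/T ratios from 0.667 to 1.02 for EV-ST486 and from 0.577 to 0.897 for miR-155-ST486. TRIM13 takes part in the degradation of proteins at the endoplasmic reticulum. Its probe A_23_P87973 gave 0.667 and 0.577, below 1 on all 4 arrays, and A_23_P99360 gave 0.961 and 0.877. Of the members with no further C-terminal domain, TRIM44, TRIM56 and TRIM74 were below 1 on average in both vectors, and TRIM8, which acts in NF-κB and JAK-STAT signalling, was at 1.24 and 1.36, above 1 on all 4 arrays. TRIM56, which acts in the STING pathway, was at 0.673 and 0.729, and the TRIM44 probes at 0.697 and 0.662 in EV-ST486 and at 0.513 and 0.612 in miR-155-ST486. TRIM74 has a near-identical copy, TRIM73, so its value of 0.808 and 0.900 may hold signal of both.

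How far probes of the same gene differed could be read from 11 genes with 2 kept probes. They were closest for TRIM44, 1.05-fold apart in EV-ST486, and farthest apart for TRIM37. In EV-ST486 the probes of TRIM26, TRIM27, TRIM35 and TRIM37 differed by more than 2-fold (2.30, 2.03, 2.32 and 4.81), and in miR-155-ST486 those of TRIM35 and TRIM37 (3.23 and 3.52). The orientations did not overlap for TRIM11, TRIM13, TRIM26, TRIM27, TRIM35, TRIM37 and TRIM41 in EV-ST486. TRIM32 probes differed 1.74-fold in EV-ST486 and 1.53-fold in miR-155-ST486, less than the difference of each between the vectors.

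**Figure D4:**
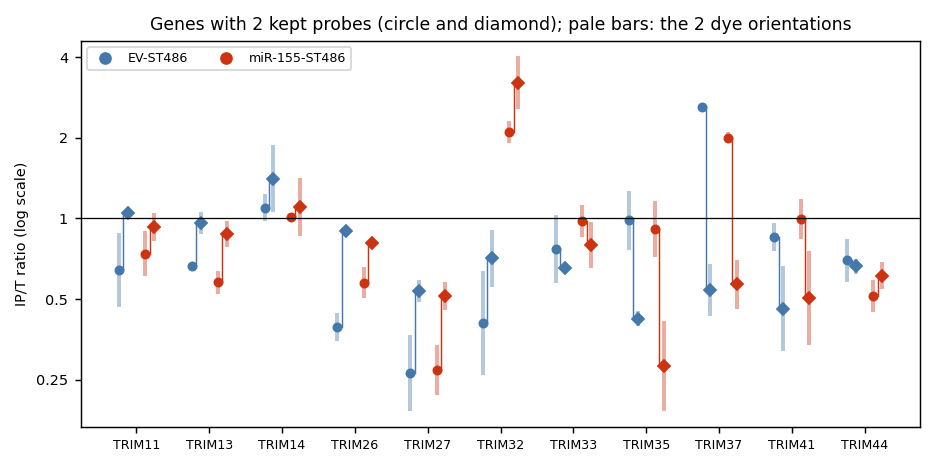
IP/T ratio (log scale) of the 11 TRIM genes with 2 kept probes, drawn as circle and diamond and joined by a line, in EV-ST486 (blue) and miR-155-ST486 (red). Pale bars join the 2 dye orientations, and the TRIM37 probes are 4.81-fold apart in EV-ST486, on opposite sides of 1.

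In the total fraction none of the 41 probes differed 2-fold between the vectors on the mean of both labellings. Such differences were rare over all kept probes too, at 0.676% upward and 0.380% downward in miR-155-ST486. The ratio of total signals ran from 0.537 for the TRIM35 probe A_24_P12651 (0.775 with Cy3 and 0.372 with Cy5) to 1.38 for the TRIM14 probe A_24_P197964. Its median was 1.04. TRIM63 was next to the lowest, with total signals of 335 and 437 in EV-ST486 and 214 and 212 in miR-155-ST486 and a ratio of 0.556 (0.639 with Cy3 and 0.484 with Cy5), and its IP signal went the same way, with a ratio of 0.667. In the IP fraction both TRIM32 probes were at least 2-fold higher in miR-155-ST486, beside 1.28% of all kept probes, and the TRIM35 probe A_24_P12651 was at least 2-fold lower, beside 1.05%. In such bulk RNA, fewer cells with a transcript and less of it per cell cannot be told apart.

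**Figure D5:**
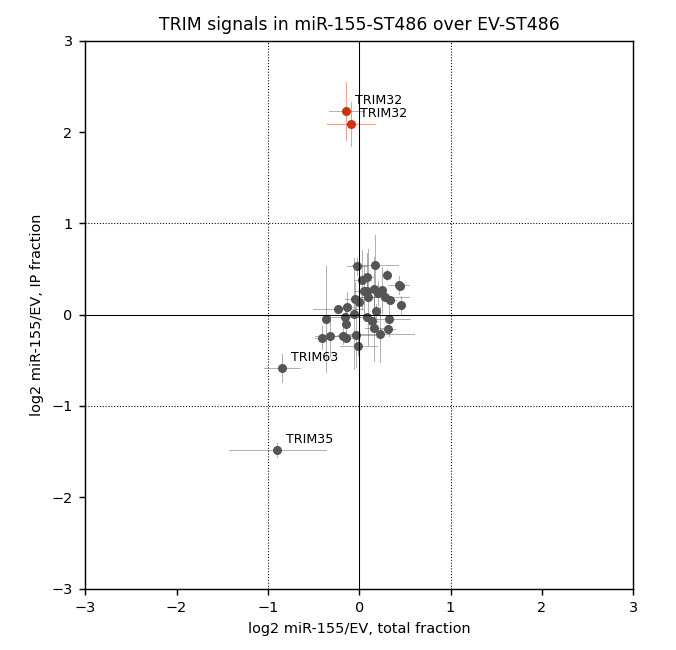
Log2 ratio of miR-155-ST486 over EV-ST486 for the 41 kept TRIM probes in the total fraction (horizontal) and in the IP fraction (vertical), with lines joining the values of the 2 labellings and dotted lines at 2-fold. The TRIM32 probes (red) stand at 2.23 and 2.09 in the IP fraction and at -0.14 and -0.09 in the total fraction, and TRIM35 at -1.48 and -0.90.

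Of the 14 TRIM probes left out because their labellings differed by over 2-fold, some gave ratios far apart in the dye orientations. The TRIM22 probe A_23_P203498 had an IP/T ratio in EV-ST486 of 1.55 in one dye orientation and of 6.36 in the other, and the TRIM7 probe A_23_P30315 of 0.889 and 4.71. The TRIM14 probe A_23_P334083 gave a miR-155/EV ratio of 4.61 in one orientation and of 0.228 in the other.

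Genes that belong to the family under another name and partners of TRIM ligases were read in the same way. Among the former 8 probes of MEFV, MID1, PML and RNF207 were kept. PML, the organizer of nuclear bodies, had 5 probes with IP/T ratios from 0.680 to 1.00 for EV-ST486 and from 0.701 to 0.926 for miR-155-ST486. MEFV, which encodes pyrin, was the exception at 2.66 (2.35 and 3.02) for EV-ST486 and 0.791 (0.783 and 0.799) for miR-155-ST486. Its miR-155/EV ratio was thus 0.297 (0.334 and 0.264), and 0.477% of all kept probes were at or below 0.5. MEFV also met both thresholds with the vectors exchanged, as 0.174% of all kept probes did. Its signals were between 19.6 and 85.3 in all 8 channels, and it was detected in 1 of the 2 labellings of each fraction of EV-ST486. Of the partners, such as ubiquitin-conjugating enzymes, heterochromatin proteins and RIG-I, 23 probes of 14 genes were kept. IP/T was at or above 2 for 2 of these probes in EV-ST486 and for 3 in miR-155-ST486, beside 12.1% and 12.2% of all kept probes. UBE2W, an enzyme that puts the first ubiquitin on the N terminus of substrates, among them TRIM5 and TRIM21, had ratios of 8.93 and 9.45 on its probes in EV-ST486 and of 10.3 and 5.72 in miR-155-ST486. The probe with the ratio of 9.45 had total signals of only 45.2 and 23.9 with EV and was detected in 1 of these labellings. UBE2N, which builds chains linked through lysine 63 of ubiquitin, reached 2.39 on 1 of its 3 probes in miR-155-ST486. None of these partners had a miR-155/EV ratio of 2 or more, which 1.15% of all kept probes had.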

How the data were processed

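The deposited intensity values are the authors' processed signals from Agilent Feature Extraction 10.5.1.1, which per the file headers had its background subtracted, spatial trends removed and dyes normalized array by array. Log2 values that the authors made from them in GeneSpring, with quantile normalization of all 8 channels and filters, were deposited too. Files of the paired channels of an array repeat the same content, which was counted once.

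From the intensities, control spots were left out, spots of a probe averaged, signals below 1 set to 1, and log2 values quantile-normalized over the 8 channels, after the study's methods. Probes were kept where the scanner's flags (well above background; positive and significant) called them detected in 4 or more channels and where the labellings of every sample lay within 2-fold. Of 14453 probes with deposited log2 values, among them 38 of the 41 TRIM probes, 99.9% of values lay within 0.05 of those made here. IP/T is the ratio of the means of log2 signals, given as a linear ratio. Values in brackets are for the orientation with total RNA in Cy3 first and with IP RNA in Cy3 second. Symbols came from RefSeq accessions (GRCh38.p14 table, names only). There was no test, as n = 1 per condition, and the number of arrays limits the precision.

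Named with all signals are the probes with IP/T of at least 2 or at most 0.5 in either vector and the TRIM32 probes. Named with their ratios are also the 5 highest and 5 lowest in miR-155/EV, genes with probes on both sides of a threshold, and probes with a 2-fold difference in a fraction. TRIM63 and the TRIM22, TRIM7, TRIM14 and TRIM25 probes left out on labelling were picked after their values were seen. The members, classes and lists were chosen with earlier results of these data known. Alternatives covered background correction (normexp, offset 50, on median signals, with local backgrounds above 500 kept or set to the channel's median), normalization, filters, dye orientation, spots, averaging per gene and the threshold. The procedure was tested on simulated data. Scripts ran in R 4.3.3 with limma 3.58.1 and in Python 3.11.15 with pandas 2.3.3, numpy 2.4.6 and matplotlib 3.10.9.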

Additional observations from a re-analysis of the deposited data

Results flagged for a closer look

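Both TRIM32 probes stood out because the vectors moved IP/T in opposite directions: it was below 1 on both EV-ST486 arrays and above 1 on both miR-155-ST486 arrays, with miR-155/EV ratios of 5.16 (A_23_P112311) and 4.52 (A_24_P29966). Of all kept probes 1.58% showed this pattern and 1.65% the opposite one, which none of the 41 TRIM probes showed. With 1 RNA sample per condition the difference was not tested.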

How the results depend on the processing

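In all, 14 alternatives were run. Where signals or filters changed, the filters were applied anew, so the set of probes changed together with the processing. In place of 41 TRIM probes, 55, 55 and 54 were kept in the normexp settings in the order below, and 33 without quantile normalization. The authors' log2 values held 38. Without a filter on detection there were 62, without one on labellings 55, and with detection in all 8 channels 31. Normexp with an offset of 50 gave miR-155/EV ratios of TRIM32 of 1.25 and 1.73 with quantile normalization and of 1.19 and 1.94 with loess and Aquantile. With the same offset and quantile normalization they were 2.01 and 3.44 once the high local backgrounds, 33 over all channels, were replaced. Why the ratios differed between these settings was not tested. In that order, 0, 0 and 1 TRIM probes passed both thresholds in place of 2, 0, 0 and 1 had IP/T of at least 2 in EV-ST486 in place of 2, 0, 1 and 2 in miR-155-ST486 in place of 4, 0, 0 and 2 had IP/T of at most 0.5 in EV-ST486 in place of 6, and 0, 0 and 1 in miR-155-ST486 in place of 4. The median log2 IP/T of the TRIM probes was -0.053, 0.0045 and -0.15 in EV-ST486 in place of -0.38, so its sign turned with loess and Aquantile, and -0.035, -0.045 and -0.090 in miR-155-ST486 in place of -0.22. Over all probes the number with IP/T of at least 2 in EV-ST486 fell likewise, from 1873 to 439, 145 and 1107. The probes kept were then 19224, 18895 and 18294 in place of 15529.

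Without quantile normalization 1 probe passed both thresholds, 1 and 2 had IP/T of at least 2 in EV-ST486 and miR-155-ST486, and the median log2 IP/T in miR-155-ST486 was -0.31. Detection in all 8 channels left 1 probe past both thresholds and 2 and 1 at or below 0.5 in the vectors. In both of these settings A_23_P112311 was filtered out. Without a filter on detection the medians were -0.18 and -0.073, and without one on labellings 5 probes reached 2 in EV-ST486. With total RNA in Cy3 only, 1 probe passed both thresholds, 12 were at or below 0.5 in EV-ST486 and the median in miR-155-ST486 was -0.32, and with IP RNA in Cy3 only the medians were -0.22 and -0.27. Averaging probes per gene left 1 gene past both thresholds, 1 and 2 with IP/T of at least 2, and 2 at or below 0.5 in EV-ST486. At a threshold of 1.5 there were 8 at or above it in miR-155-ST486, and 14 and 12 below its inverse. The miR-155/EV ratio of both TRIM32 probes stayed above 1 in every alternative that kept them. No paired analysis was possible because each condition has 1 RNA sample.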
